A study of Homo sapiens with 27 samples.

Results

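Translation initiation factor genes were taken as every gene whose symbol in the array's probe table begins with EIF and a digit, leaving out the eIF2 kinases (EIF2AK symbols), with the brightest probe standing for a gene that has several. The rule gave 42 genes on 47 probes, of 15240 named genes on the array. 4 of the members, EIF2C1 to EIF2C4, are the older symbols of AGO1 to AGO4, the Argonaute proteins that load small RNAs, and are no initiation factors. They are kept in the counts and named apart, and EIF3EIP is the older symbol of EIF3L. Only probes named by a single gene symbol were used for genes. By that rule 13 protein-coding EIF genes had no probe, among them EIF4A1, EIF5A, EIF2S2, EIF3C and EIF3F. They were not analysed here, and whether a probe with several symbols names them was not looked at.

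The cells were U937, a permanent human cell line with monocyte traits, derived from a histiocytic lymphoma, so what is described is a cell line and not primary macrophages. The 3 groups were cells given PBD150, an inhibitor of glutaminyl cyclase, at 10 µM for 2 hours and then LPS at 4 µg/ml; cells given LPS alone at 4 µg/ml; and untreated cells. LPS is the bacterial endotoxin lipopolysaccharide, the culture time was 48 hours, and PBD150 without LPS was no group. Each group had 3 cultures that the labels call biological replicates, and each culture was read on 3 one-colour arrays of total RNA whose mean is the value used below. The question in the study's title is whether glutaminyl cyclase, blocked here by PBD150, bears on macrophage gene expression under inflammatory stimulation.

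Initiation brings the small ribosomal subunit to the start codon of an mRNA. The eIF4F complex recognises the cap and unwinds the leader, eIF2 delivers the initiator tRNA and is recharged with GTP by eIF2B, eIF3 bridges the small subunit to the mRNA, and eIF5 and eIF5B complete start-codon selection and subunit joining. Signals from LPS reach this machinery through mTOR, which releases eIF4E from the 4E-binding proteins, and through the MNK kinases, which phosphorylate eIF4E. Many of these genes are also known as targets of MYC, which binds the E-box letters CACGTG.

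The promoters of 4 members that rose or fell and that hold that E-box are shown as examples, with the E-box in capitals. Other members that fell hold it too, among them EIF2B3 and EIF3K, and are not shown. Each promoter shown is the 250 bases before a RefSeq transcript start in GRCh38.p14, written 5′ to 3′ on the gene's strand. EIF4E lies at chr4:98929134-98929383 on the minus strand, EIF5A2 at chr3:170908638-170908887 on the minus strand, EIF4G1 at chr3:184314356-184314605 on the plus strand and EIF4H at chr7:74174106-74174355 on the plus strand.
EIF4E: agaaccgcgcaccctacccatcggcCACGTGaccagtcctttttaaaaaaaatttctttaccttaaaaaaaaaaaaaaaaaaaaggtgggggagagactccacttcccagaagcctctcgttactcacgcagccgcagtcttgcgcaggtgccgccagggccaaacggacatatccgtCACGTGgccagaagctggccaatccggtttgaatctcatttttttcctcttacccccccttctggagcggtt
EIF5A2: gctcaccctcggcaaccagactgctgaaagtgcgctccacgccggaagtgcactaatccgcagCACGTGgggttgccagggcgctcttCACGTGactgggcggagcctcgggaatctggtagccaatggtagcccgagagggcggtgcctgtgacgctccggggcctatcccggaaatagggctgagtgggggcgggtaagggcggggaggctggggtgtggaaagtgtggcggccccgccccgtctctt
EIF4G1: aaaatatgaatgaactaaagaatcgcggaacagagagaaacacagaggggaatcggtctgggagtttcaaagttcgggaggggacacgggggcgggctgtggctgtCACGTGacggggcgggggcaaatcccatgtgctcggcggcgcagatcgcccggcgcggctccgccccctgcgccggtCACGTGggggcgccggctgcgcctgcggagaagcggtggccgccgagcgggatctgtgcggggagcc
EIF4H: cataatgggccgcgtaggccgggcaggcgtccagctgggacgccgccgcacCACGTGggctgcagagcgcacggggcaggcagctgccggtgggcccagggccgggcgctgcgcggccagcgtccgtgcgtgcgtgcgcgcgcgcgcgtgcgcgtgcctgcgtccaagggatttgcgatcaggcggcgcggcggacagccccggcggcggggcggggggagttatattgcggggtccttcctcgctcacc
EIF4E, EIF5A2 and EIF4G1 each hold 2 copies in the window shown, and EIF4H holds 1.

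The median intensity of an array lay between 41.5 and 100.3, and 69.0% to 77.8% of probes per array were above the noise limit, set at 3 times the root mean square of the array's values below 0. The 3 arrays of untreated replicate 1 stood apart, with medians of 41.5 to 46.8, while the 6 arrays of the other untreated cultures had 69.6 to 74.9; counts without that culture are given with each comparison. Of the 42 members 40 were above the noise limit on all 27 arrays. The median SD between cultures over the members was 0.290 with PBD150 plus LPS, 0.301 with LPS and 0.0697 untreated on the log2 scale. Of 10 measured myeloid markers 9 were above noise on every array, among them CD33, ITGAM and LYZ. The 10 did not move together. Log2 means with LPS and untreated were 15.86 and 8.95 for CD14, 12.18 and 7.83 for ITGAM, and 11.52 and 6.96 for CSF1R. PTPRC and CD33 also had higher means in both treated groups. LYZ went the other way, with 10.44 and 11.09, and MPO and ELANE also had lower means in both treated groups. SPI1 and FCGR1A differed in direction between the treated groups. The mean log2 intensity per culture over all 10 was 10.64 to 10.99 with PBD150 plus LPS and 10.75 to 10.93 with LPS. Untreated cultures had 9.04 to 9.36. The same mean over 3 measured epithelial markers was 4.65 to 4.76 with PBD150 plus LPS, 4.65 to 4.80 with LPS and 2.98 to 4.03 untreated. EPCAM was above noise on all treated and 7 of 9 untreated arrays. CDH1 was above noise on 3 arrays with PBD150 plus LPS, 3 with LPS and 1 untreated, and KRT19 on 3, 4 and 1. Over 7 lymphocyte markers (T or NK) the same mean was 6.96 to 7.02 with PBD150 plus LPS, 6.79 to 7.23 with LPS and 6.41 to 6.48 untreated, and CD3D and CD8A were above noise on every array. For 3 B lymphocyte markers it was 7.36 to 7.58 with PBD150 plus LPS, 7.45 to 7.92 with LPS and 7.79 to 7.97 untreated. For 4 fibroblast markers it was 5.49 to 5.92 with PBD150 plus LPS, 5.27 to 5.70 with LPS and 5.03 to 5.16 untreated, and COL1A1 and COL1A2 were above noise on every array, DCN on all treated and 7 of 9 untreated arrays, and COL3A1 on 0 treated and 1 untreated array. The part of these markers in the results was not tested, and in bulk RNA fewer cells of a type and less RNA per cell cannot be told apart.

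In LPS-treated cells 17 of the 42 genes fell and 4 rose against untreated cells (limma, adjusted p under 0.05 over all 30968 probes), and 21 did not pass. The falls included the cap-complex genes EIF4G1 and EIF4H, the eIF2 alpha subunit EIF2S1, 8 subunits of eIF3 and the subunit-joining factor EIF5B. The rises were EIF4E, EIF4E3, EIF5A2 and EIF2C1. Over all 15240 genes 15.4% fell and 13.5% rose, and over the 7620 genes at or above the median level, where 38 of the members lie, 20.3% fell and 19.7% rose; among the members the shares were 40.5% and 9.52%. The median log2 difference was -0.66 over the members and 0.05 over all genes. The LPS cultures lay wholly above the untreated ones in 6 members and wholly below in 24. Of all 15240 genes 3928 lay wholly above and 3757 wholly below, so a lack of overlap was common on the array. On the values as deposited, with no normalisation between arrays, 9.42% of all genes fell and 21.8% rose, and 13 members fell and 5 rose. Differences of members that did not pass ran from -1.58 to 0.42.

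**Figure D1:**
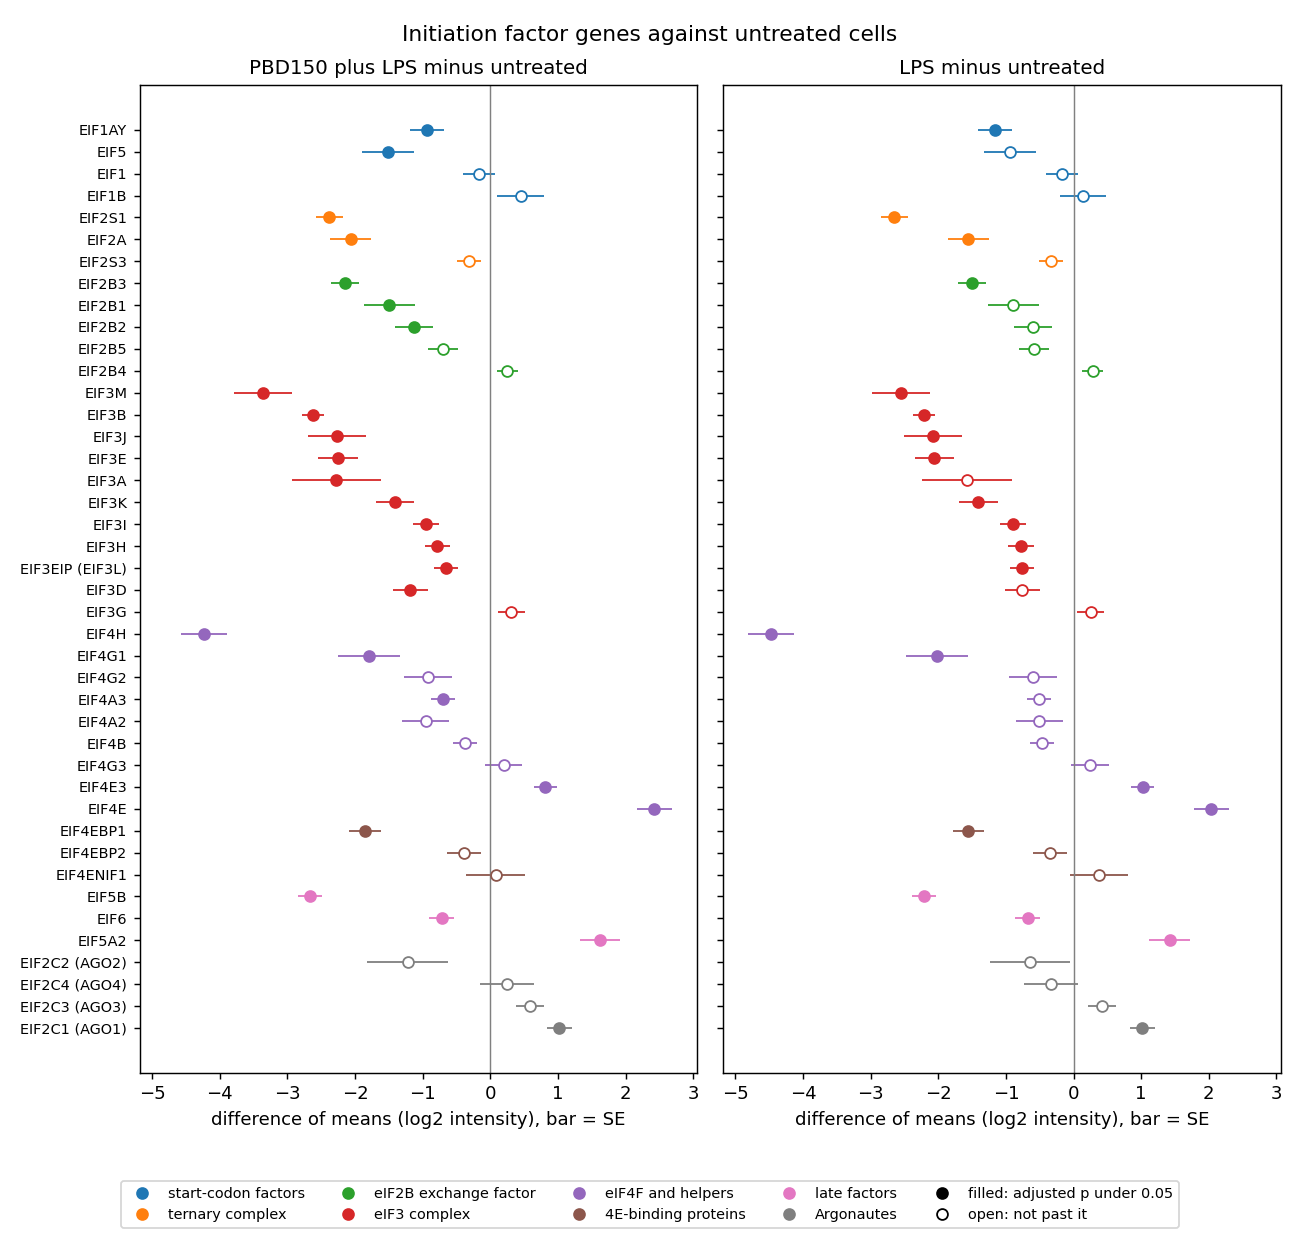
Difference of group means in log2 intensity for each of the 42 genes, PBD150 plus LPS minus untreated on the left and LPS minus untreated on the right, with bars for the SE from limma. Filled points had an adjusted p under 0.05; points of the eIF3 and ternary complex rows lie mostly left of 0, and EIF4E and EIF5A2 lie farthest right.

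eIF4F is the cap-binding complex, and 2 of its 9 genes and helpers measured here rose with LPS while 2 fell. EIF4E, which encodes the protein that holds the mRNA cap, had log2 intensities of 8.92, 8.38 and 9.09 with PBD150 plus LPS, 8.11, 8.49 and 8.62 with LPS, and 6.05, 6.54 and 6.52 untreated. Every treated culture lay above every untreated one, and EIF4E rose by 2.03 ± 0.26 with LPS, a 4.09-fold difference (± is the SE from limma; adjusted p = 0.000852). With PBD150 plus LPS it rose by 2.43 ± 0.26 against untreated cells (adjusted p = 0.00029). EIF4E3, a cap-binding relative of EIF4E, had 10.73, 10.43 and 10.76 with PBD150 plus LPS, 10.75, 10.96 and 10.83 with LPS, and 9.83, 9.80 and 9.85 untreated. It rose by 1.02 ± 0.17 with LPS (adjusted p = 0.00332) and by 0.81 ± 0.17 with PBD150 plus LPS (adjusted p = 0.00877), again without overlap with the untreated cultures.

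EIF4G1, the scaffold that joins the cap-binding protein to the helicase and to eIF3, moved the other way. Its values were 12.62, 12.22 and 12.37 with PBD150 plus LPS, 10.96, 12.85 and 12.75 with LPS, and 14.19, 14.25 and 14.17 untreated. LPS replicate 1 was the lowest culture, yet all treated cultures lay below all untreated ones. EIF4G1 fell by 2.02 ± 0.46 with LPS (adjusted p = 0.0137) and fell by 1.80 ± 0.46 with PBD150 plus LPS (adjusted p = 0.0201). EIF4H, a helper of the eIF4A helicase, had 3.29, 3.48 and 3.57 with PBD150 plus LPS, 2.48, 3.21 and 3.95 with LPS, and 7.56, 7.85 and 7.64 untreated. The treated values lie in the noise, since the probe was above the noise limit on 2 of 9 arrays with PBD150 plus LPS and 1 of 9 with LPS, against 9 of 9 untreated. EIF4H fell by 4.47 ± 0.34 with LPS (adjusted p = 7.49e-05) and fell by 4.23 ± 0.34 with PBD150 plus LPS (adjusted p = 7.72e-05). With 16 added to each intensity before the log, which damps dim values, these differences were -3.03 and -2.98, so the call held and the size of the fold depended on the treatment of dim values. The helicase gene EIF4A2 had a difference of -0.51 with LPS (adjusted p = 0.344) by its brighter probe, while its dimmer probe fell by 0.88 (adjusted p = 0.0144). EIF4B, EIF4A3, EIF4G2 and EIF4G3 did not pass with LPS (differences of -0.47, -0.51, -0.59 and 0.24).

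The 4E-binding proteins hold eIF4E away from the scaffold when they are not phosphorylated. EIF4EBP1 had 13.28, 13.37 and 12.60 with PBD150 plus LPS, 13.44, 13.20 and 13.50 with LPS, and 14.90, 14.93 and 14.98 untreated. All treated cultures lay below all untreated ones, and EIF4EBP1 fell by 1.55 ± 0.23 with LPS (adjusted p = 0.00189) and fell by 1.85 ± 0.23 with PBD150 plus LPS (adjusted p = 0.000661). EIF4EBP2 and EIF4ENIF1, which encodes the transporter 4E-T, did not pass with LPS (differences of -0.35 and 0.37).

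**Figure D2:**
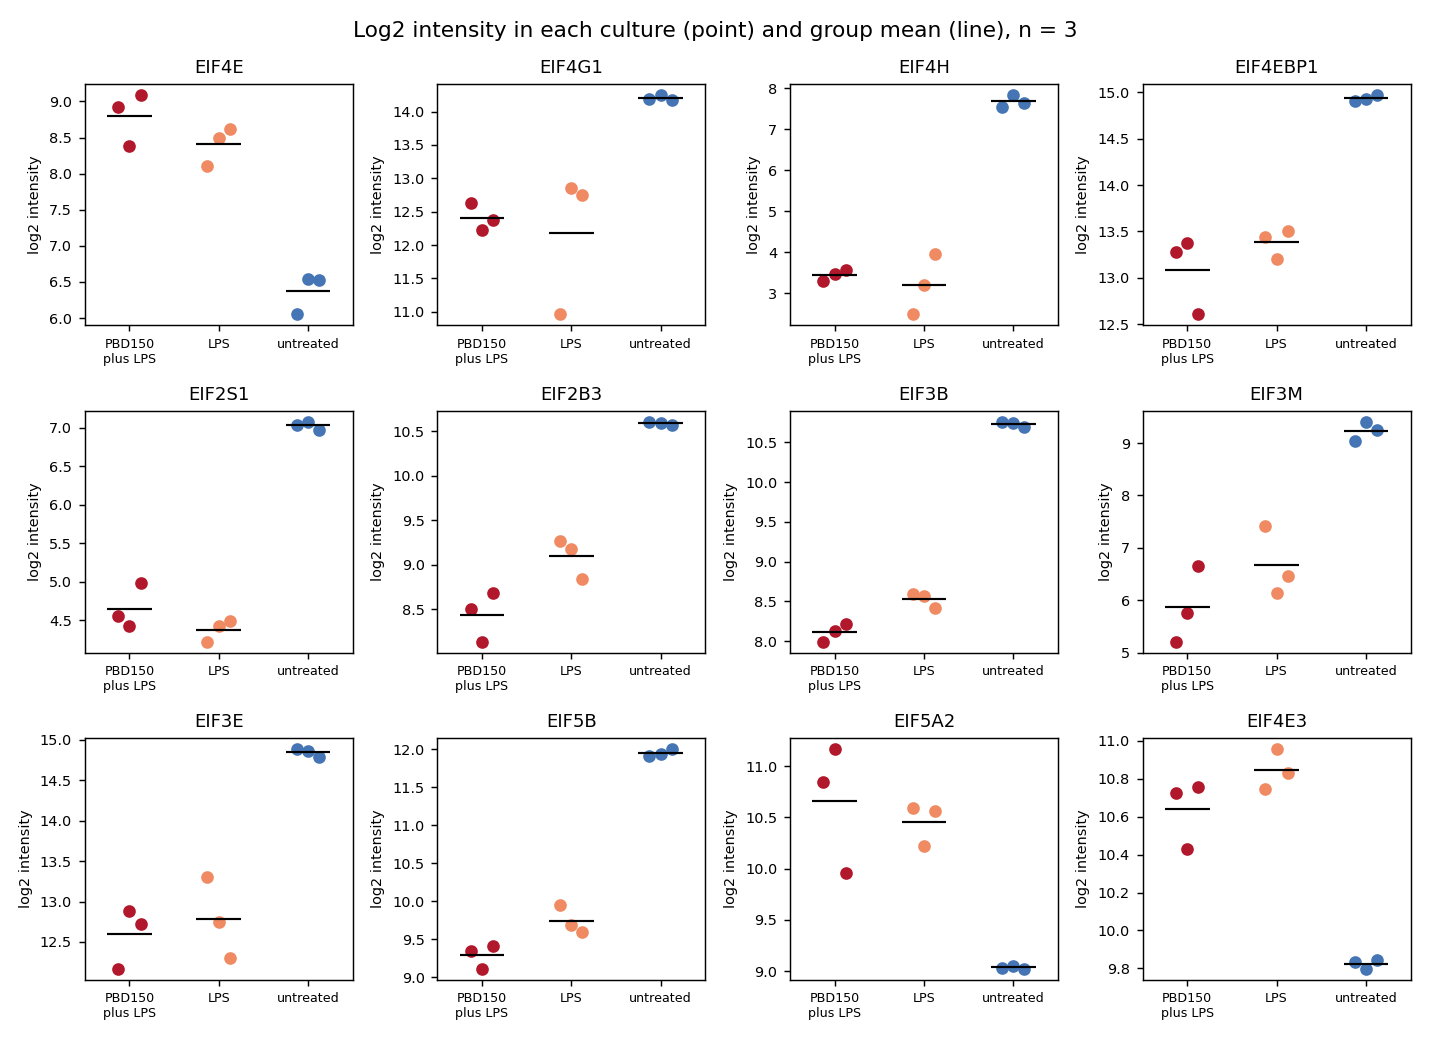
Log2 intensity in each culture (points) with the group mean (line, 3 cultures per group) for 12 of the genes, with PBD150 plus LPS, LPS and untreated cells side by side. All 12 genes passed in both comparisons with untreated cells. In all 12 panels the treated cultures and the untreated cultures do not overlap: EIF4E, EIF5A2 and EIF4E3 lie above untreated cells and the other 9 below. Of all 15240 genes, 3928 lay wholly above and 3757 wholly below untreated cells with LPS. With PBD150 plus LPS these counts were 4090 and 4118.

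eIF2 carries the initiator tRNA, and phosphorylation of its alpha subunit is the switch of the integrated stress response. EIF2S1, which encodes that subunit, had 4.55, 4.42 and 4.99 with PBD150 plus LPS, 4.22, 4.43 and 4.49 with LPS, and 7.04, 7.08 and 6.97 untreated. It fell by 2.65 ± 0.20 with LPS (adjusted p = 7.36e-05) and fell by 2.38 ± 0.20 with PBD150 plus LPS (adjusted p = 9.84e-05), with no overlap with untreated cells. The probe was above noise on 8 of 9 arrays with PBD150 plus LPS and 6 of 9 with LPS, and with 16 added before the log the differences were -1.81 with PBD150 plus LPS and -1.96 with LPS. EIF2S3, the gamma subunit that binds GTP and the tRNA, had differences of -0.33 with LPS and -0.32 with PBD150 plus LPS, and neither passed. EIF2A, a separate protein that can deliver initiator tRNA without GTP, fell by 1.56 ± 0.31 with LPS (adjusted p = 0.00704) and fell by 2.06 ± 0.31 with PBD150 plus LPS (adjusted p = 0.00152).

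eIF2B is the exchange factor that reloads eIF2 with GTP, and 1 of its 5 subunits passed with LPS. That subunit, EIF2B3, is the gamma partner of the catalytic epsilon subunit. It had 8.50, 8.14 and 8.68 with PBD150 plus LPS, 9.27, 9.18 and 8.84 with LPS, and 10.61, 10.60 and 10.57 untreated. The 3 groups did not overlap one another, and EIF2B3 fell by 1.50 ± 0.21 with LPS (adjusted p = 0.00124) and fell by 2.15 ± 0.21 with PBD150 plus LPS (adjusted p = 0.000177). EIF2B5, the catalytic subunit, had differences of -0.59 with LPS (adjusted p = 0.100) and -0.70 with PBD150 plus LPS (adjusted p = 0.0501). EIF2B4 was the subunit whose difference lay above 0 in both (0.29 with LPS and 0.25 with PBD150 plus LPS), without passing.

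eIF3 is the largest initiation factor, a ring of subunits around the small ribosomal subunit, and 8 of its 11 measured genes fell with LPS, 0 rose and 3 did not pass. EIF3B, a core subunit, had 8.00, 8.12 and 8.22 with PBD150 plus LPS, 8.59, 8.57 and 8.41 with LPS, and 10.76, 10.74 and 10.70 untreated. The cultures of a group lay close together and the groups did not overlap: EIF3B fell by 2.21 ± 0.16 with LPS (adjusted p = 6.54e-05) and fell by 2.62 ± 0.16 with PBD150 plus LPS (adjusted p = 2.44e-05). EIF3M had 5.21, 5.76 and 6.65 with PBD150 plus LPS, 7.42, 6.14 and 6.46 with LPS, and 9.03, 9.41 and 9.24 untreated. Its treated cultures were spread over more than 1 log2 unit but all lay below untreated cells, and it fell by 2.55 ± 0.43 with LPS (adjusted p = 0.00317) and fell by 3.36 ± 0.43 with PBD150 plus LPS (adjusted p = 0.000678). EIF3E had 12.17, 12.89 and 12.73 with PBD150 plus LPS, 13.31, 12.75 and 12.31 with LPS, and 14.89, 14.87 and 14.79 untreated. It fell by 2.06 ± 0.29 with LPS (adjusted p = 0.0014) and fell by 2.25 ± 0.29 with PBD150 plus LPS (adjusted p = 0.000753). EIF3J, the loosely bound subunit, had 6.30, 6.44 and 6.76 with PBD150 plus LPS, 7.76, 5.83 and 6.50 with LPS, and 8.83, 8.80 and 8.69 untreated. It too stayed below untreated cells in all 6 treated cultures and fell by 2.07 ± 0.43 with LPS (adjusted p = 0.009) and fell by 2.27 ± 0.43 with PBD150 plus LPS (adjusted p = 0.00516).

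Smaller falls with LPS came from EIF3K (-1.40), EIF3I (-0.89), EIF3H (-0.78) and EIF3EIP (-0.76). On the values as deposited EIF3I, EIF3H and EIF3EIP did not pass with LPS, EIF3I with an adjusted p of 0.128. EIF3H also did not pass with the replicate number as a block in the fit. EIF3A, the largest subunit, had 7.48, 8.07 and 9.08 with PBD150 plus LPS, 10.50, 8.12 and 8.10 with LPS, and 10.10, 10.71 and 10.64 untreated. LPS replicate 1 lay inside the untreated range and the other LPS cultures more than 1 log2 unit below it, so its difference of -1.58 ± 0.66 did not pass (adjusted p = 0.131). With PBD150 plus LPS, EIF3A fell by 2.27 ± 0.66 (adjusted p = 0.0358). EIF3D had -0.76 with LPS (adjusted p = 0.0734), and EIF3G, which binds RNA through an RNA recognition motif, was the eIF3 gene with a difference above 0 (0.25, adjusted p = 0.417); its second probe gave 0.33 (adjusted p = 0.362).

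Among the factors of start-codon selection, EIF1AY fell by 1.15 ± 0.25 with LPS (adjusted p = 0.0114); EIF1AX is a near-identical copy, and which copy the probe reads was not tested. EIF5, which triggers GTP hydrolysis by eIF2 at the start codon, had 8.88, 8.95 and 9.97 with PBD150 plus LPS, 10.59, 9.53 and 9.43 with LPS, and 10.67, 10.85 and 10.84 untreated. Its LPS cultures split, with replicate 1 just under the untreated range, and the LPS difference of -0.94 ± 0.38 did not pass (adjusted p = 0.122), whereas the difference of -1.52 ± 0.38 with PBD150 plus LPS did (adjusted p = 0.0199). EIF1 and its close copy EIF1B, which guard against wrong start codons, did not pass with LPS (-0.17 and 0.14).

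The late factors moved in both directions. EIF5B, the GTPase that joins the large ribosomal subunit, had 9.35, 9.11 and 9.41 with PBD150 plus LPS, 9.95, 9.68 and 9.59 with LPS, and 11.91, 11.94 and 12.00 untreated. It fell by 2.21 ± 0.18 with LPS (adjusted p = 0.000102) and fell by 2.66 ± 0.18 with PBD150 plus LPS (adjusted p = 3.68e-05). EIF5A2, the second gene of the hypusine-bearing factor eIF5A that eases peptide bonds at difficult sequences, had 10.85, 11.17 and 9.96 with PBD150 plus LPS, 10.59, 10.22 and 10.56 with LPS, and 9.03, 9.05 and 9.02 untreated. It rose by 1.42 ± 0.30 with LPS (adjusted p = 0.0102) and by 1.62 ± 0.30 with PBD150 plus LPS (adjusted p = 0.0048), and no treated culture overlapped the untreated ones. EIF6, which keeps free large subunits from joining, fell by 0.68 ± 0.19 with LPS (adjusted p = 0.0346) by its brighter probe, and its dimmer probe gave -0.81 without passing (adjusted p = 0.331).

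Of the 4 Argonaute genes, EIF2C1 (AGO1) had 10.69, 10.53 and 10.42 with PBD150 plus LPS, 10.33, 10.71 and 10.59 with LPS, and 9.65, 9.49 and 9.44 untreated. It rose by 1.02 ± 0.18 with LPS (adjusted p = 0.00452) and by 1.02 ± 0.18 with PBD150 plus LPS (adjusted p = 0.00387). EIF2C2 (AGO2, the member that cuts its target), EIF2C3 and EIF2C4 did not pass in either. Without the Argonautes, 17 of 38 genes fell and 3 rose with LPS.

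LPS replicate 1 was the culture farthest from its group's median in 26 of the 42 genes, and in 12 of the 14 whose LPS cultures spanned more than 1 log2 unit. Without it, 20 genes fell and 5 rose with LPS, beside 17.65% and 14.28% of all genes, and the median difference was -0.78. Without untreated replicate 1, 15 fell and 4 rose, beside 11.12% and 10.14% of all genes. Of the 21 calls 18 held whichever single culture was left out; those of EIF3EIP, EIF3H and EIF6 did not, with adjusted p of up to 0.0639, 0.0736 and 0.122. They were lost without untreated replicate 2 or 3 and without LPS replicate 3 (all 3 genes), without untreated replicate 1 (EIF3EIP and EIF6), and, for EIF6 only, without LPS replicate 1 or 2 or PBD150 plus LPS replicate 2.

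In cells given PBD150 plus LPS, 23 of the 42 genes fell and 4 rose against the same untreated cultures, and 15 did not pass. Because both comparisons share the untreated cultures, their counts are not independent. Over all genes 17.9% fell and 15.3% rose, and at or above the median level 23.7% fell and 22% rose; among the members 54.8% fell and 9.52% rose. On the values as deposited 13.5% of all genes fell and 18.4% rose, and 16 members fell and 5 rose. The median difference was -0.93 over the members and 0.06 over all genes. The PBD150 plus LPS cultures lay wholly above the untreated ones in 8 members and wholly below in 28, beside 4090 and 4118 of all 15240 genes. By role, 10 of 11 eIF3 genes fell, 3 of 5 of eIF2B, 3 of 9 of eIF4F and helpers, 2 of 4 start-codon factors, 2 of 3 of the ternary complex group, 2 of 3 late factors, 1 of 3 of the 4E-binding proteins and 0 of 4 Argonautes. These counts use the brightest probe. The dimmer probe of EIF6, counted as a fall, did not pass (-0.37, adjusted p = 0.656). That of EIF4A2, counted as not passing, fell (-0.96, adjusted p = 0.00819). EIF2B1 (-1.49, adjusted p = 0.0196), EIF2B2 (-1.13, adjusted p = 0.0193), EIF3D (-1.18, adjusted p = 0.0111) and EIF4A3, an exon-junction protein (-0.70, adjusted p = 0.0206), passed here together with EIF3A and EIF5; that they did not pass with LPS alone is no test of a difference between the treatments, which is the next comparison.

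This count depended on single cultures. It was 13 falls without untreated replicate 2, 13 without untreated replicate 3, 15 without PBD150 plus LPS replicate 2, 17 without untreated replicate 1 and 18 without PBD150 plus LPS replicate 1. The share of all genes that fell was also smaller in these fits, 13.0% to 14.1% against 17.9% with all cultures. The 4 rises passed in each of these fits. Of the 27 calls 17 held whichever culture was left out. The other 10 were EIF1AY, EIF5, EIF2B1, EIF2B2, EIF3A, EIF3EIP, EIF3H, EIF4A3, EIF4G1 and EIF6, each lost without 1 or more of these 5 cultures; their highest adjusted p ran from 0.0640 to 0.120. PBD150 plus LPS replicate 3 was the culture farthest from its group's median in 18 of the 42 genes.

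**Figure D3:**
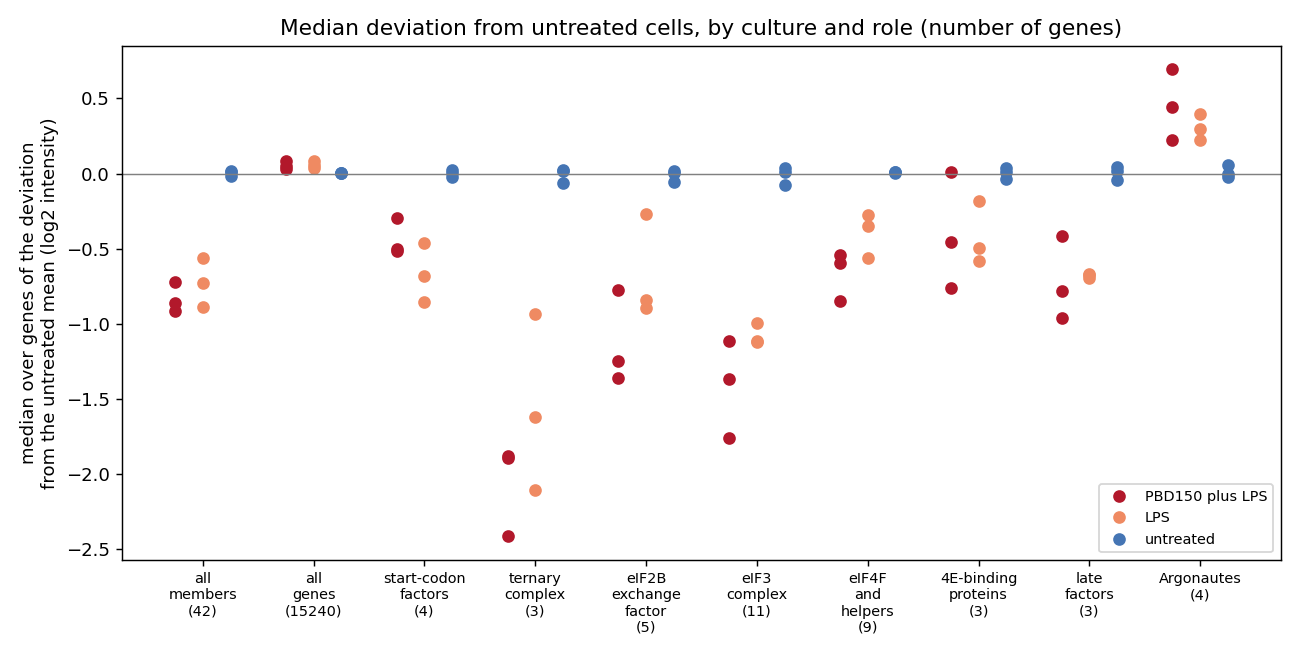
Median over the genes of a role of the deviation from the untreated mean (log2 intensity) in each of the 3 cultures of PBD150 plus LPS, LPS and untreated cells; the number of genes is in brackets. All 6 treated cultures lie below 0 for the eIF3 genes (-1.76 to -0.996) and for the 42 members together (-0.91 to -0.57), and above 0 for the Argonautes (0.22 to 0.69).

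Whether PBD150 altered the response was read within LPS-treated cells. None of the 42 genes passed for PBD150 plus LPS against LPS by limma, with 0 higher and 0 lower, and 0% of all genes passed in either direction. At an unadjusted p under 0.05, 3 members were lower and 0 higher, against 2.81% of all genes lower and 1.65% higher. These 3 were EIF2B3 (-0.66 ± 0.21), EIF5B (-0.45 ± 0.18) and EIF3B (-0.41 ± 0.16), with adjusted p of 0.884, 0.906 and 0.906. They were also the members whose 3 PBD150 plus LPS cultures all lay below all 3 LPS cultures, which 4.46% of all genes did; no member lay wholly above, as 3.28% of all genes did. The median difference was -0.05 over the members and -0.01 over all genes. Of the members 28 of 42 (66.7%) lay below 0, as did 50.8% of all genes and 53.2% of those at or above the median level.

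The largest differences between PBD150 plus LPS and LPS belonged to EIF3M (-0.80, 95% interval -1.77 to 0.17), EIF3A (-0.70, -2.21 to 0.82), EIF2B3 (-0.66, -1.13 to -0.18), EIF2B1 (-0.60, -1.46 to 0.26) and EIF2C2 (-0.58, -1.94 to 0.77). EIF2B1 had 7.36, 7.02 and 8.32 with PBD150 plus LPS, and 8.79, 7.97 and 7.76 with LPS. EIF2C2 had 5.08, 5.20 and 7.13 with PBD150 plus LPS, and 7.30, 5.99 and 5.87 with LPS. In both, the culture farthest from its group was PBD150 plus LPS replicate 3 and LPS replicate 1, and the groups overlapped. The EIF3A difference turned to 0.098 when LPS replicate 1 was left out. All 5 eIF2B genes lay below 0 (median -0.53), and so did 9 of 11 eIF3 genes (median -0.20), 3 of 3 4E-binding proteins and 2 of 3 late factors. So did 5 of 9 of eIF4F and helpers, 2 of 4 start-codon factors, 1 of 3 of the ternary complex group and 1 of 4 Argonautes. The eIF2B medians against untreated cells overlapped: -1.36, -1.25 and -0.77 by culture with PBD150 plus LPS, and -0.27, -0.84 and -0.90 with LPS. Those of eIF3 overlapped too. For 25 of the 42 genes the 95% interval stayed within 2-fold in either direction, and for the other 17 a 2-fold difference lay inside it. These intervals use 1 spread per probe, shared by all groups. The median SD of members was 0.0697 in untreated cells, against 0.290 with PBD150 plus LPS and 0.301 with LPS. The intervals can therefore be too narrow for genes that varied more in treated cells, and the count of 25 rests on the shared spread. That no gene passed does not show that PBD150 had no effect on them.

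**Figure D4:**
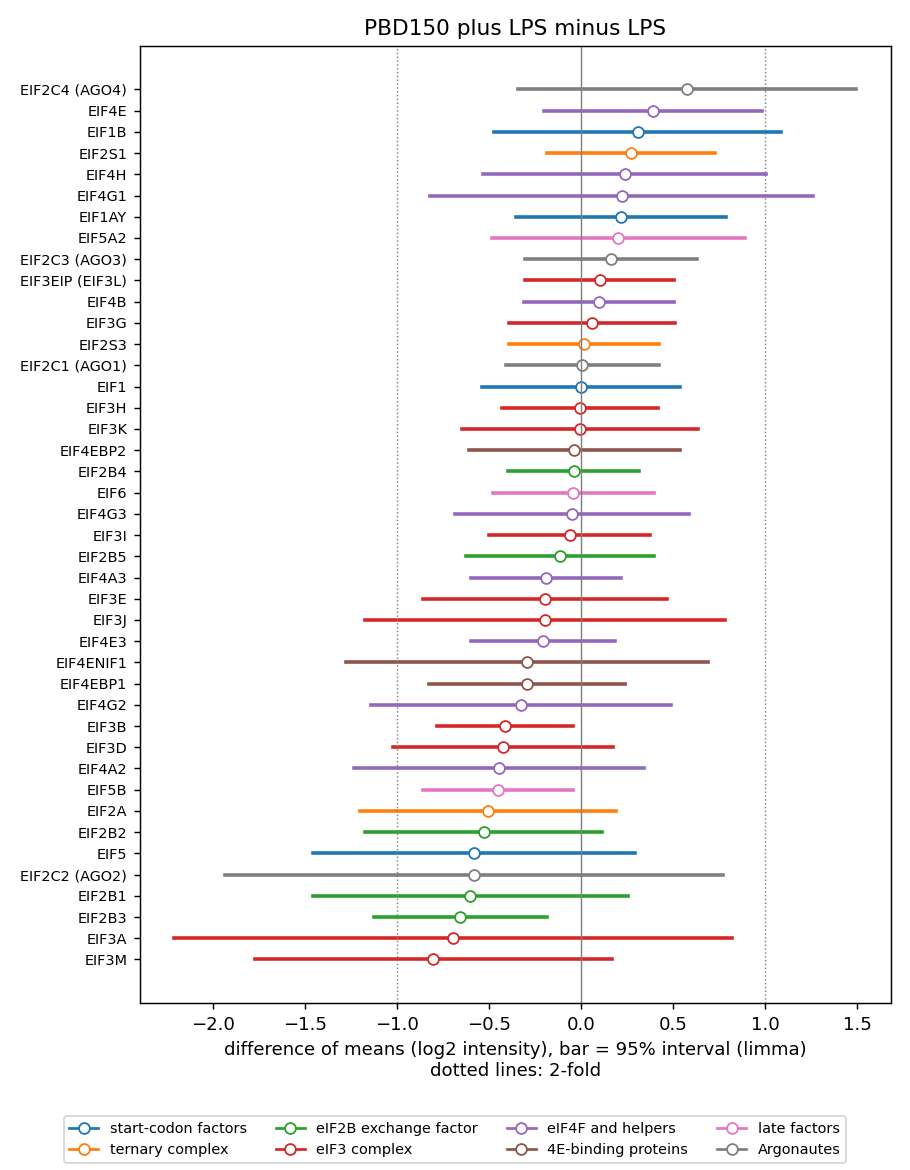
Difference of means in log2 intensity, PBD150 plus LPS minus LPS, for the 42 genes in order of size, with the 95% interval from limma and dotted lines at a 2-fold difference. Of the 42 intervals 25 lie between the dotted lines, and those of EIF2B3, EIF3B and EIF5B lie wholly below 0 before adjustment. The intervals use a spread per probe that is shared with the untreated cultures, which varied less.

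Other genes of the pathway were read from 5 lists, beside the 15.4% of all genes that fell and the 13.5% that rose with LPS (20.3% and 19.7% at or above the median level). Of 15 measured initiation partners and recycling factors 8 fell and 0 rose with LPS, with a median difference of -0.79. They included PABPC4 (-2.34), a poly(A)-binding protein, ABCE1 (-2.90), which splits ribosomes for reuse, BZW2 (-1.76), a mimic of eIF5, and DOHH (-1.16), the enzyme of the last step of hypusine formation. Of 9 mitochondrial translation factors 6 fell and 0 rose (median -1.08), among them the elongation factors TUFM (-1.31) and TSFM (-1.26), the recycling factor MRRF (-1.08) and the initiation factor MTIF2 (-1.63). Of 12 elongation and termination factors 4 fell and 0 rose (median -0.59): EEF1E1 (-2.44), a protein of the tRNA synthetase complex despite its symbol, the release factor GSPT1 (-1.29), EEF2 (-1.22), which moves the ribosome along, and EEF1B2 (-1.22).

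The signalling lists were mixed. Of 12 genes of mTOR and MNK signalling 3 rose and 4 fell with LPS (median -0.15). The mTOR inhibitor DDIT4 rose by 3.04 and the eIF4E kinase MKNK1 rose by 1.58. LARP1, which binds mRNAs of the translation machinery, fell by 2.97, to a dim mean log2 intensity of 4.97 that was above noise on 8 of 9 LPS arrays. The S6 kinase RPS6KB1 fell by 1.51. Of 9 eIF2 kinases, phosphatases and regulators 2 fell and 0 rose (median -0.23), a share of 22.2% that is near the background: the adaptor NCK1 (-2.51) and METAP2 (-0.81), an aminopeptidase that binds eIF2. EIF2AK1, the heme-regulated eIF2 kinase and the next by p, had a difference of 0.47 and did not pass (adjusted p = 0.0831). IMPACT, an inhibitor of the kinase GCN2 and the fourth by p, was above noise on 0 of 9 LPS arrays and 5 of 9 untreated arrays, so no difference is given; it did not pass either (adjusted p = 0.0847). The calls of EEF1B2 and RPS6KB1 with LPS were lost when any untreated culture was left out, RPS6KB1 also without LPS replicate 2 or 3 or PBD150 plus LPS replicate 2 (adjusted p up to 0.0732 and 0.108). Both calls were also lost with the replicate number as a block in the fit. That of RPS6KB1 was lost too in the fit on only the 2 groups compared, and it passed in 9 of 18 alternatives. On the values as deposited EEF2, METAP2 and RPS6KB1 did not pass with LPS (adjusted p = 0.0787 for EEF2 and 0.0945 for METAP2).

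With PBD150 plus LPS against untreated cells, 8 of the 15 partners, 8 of the 9 mitochondrial factors, 5 of the 12 elongation and termination factors, 4 of the 12 signalling genes and 2 of the 9 eIF2 regulators fell, and 3 signalling genes rose, beside 17.9% of all genes that fell and 15.3% that rose. The differences were -3.56 for ABCE1, -3.10 for EEF1E1, -3.13 for LARP1 and -2.95 for NCK1, and 3.41 for DDIT4. Of the 9 arrays with PBD150 plus LPS, LARP1 was above noise on 7 and NCK1 on 8. Between PBD150 plus LPS and LPS 0 genes of the 5 lists passed in either direction, and the list medians ran from -0.21 to -0.03.

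The E-box letters CACGTG, which read the same on both strands, were looked for in the 250 bases before each transcript start. Of the 35 members with a window 9 held it (25.7%): EIF1B, EIF2B3, EIF3K, EIF4A3, EIF4B, EIF4E, EIF4G1, EIF4H and EIF5A2. Of the 12207 named genes of the array with a window 10.2% held it, and of all 27305 RefSeq genes 7.73% did. It stood in 4 of the 13 members with a window that fell with LPS, in 2 of the 4 that rose and in 3 of the 18 that did not pass. In the sequences printed above the first base of each copy lies 225 and 72 bases before the start in EIF4E, 187 and 162 in EIF5A2, 144 and 67 in EIF4G1, and 199 in EIF4H. EIF4G1 has 3 windows, of which 1 holds the motif. Genes with the letters thus moved in both directions, and the count is a description of these windows and says nothing of binding. EIF3A, EIF3E, EIF3EIP, EIF3G, EIF3H, EIF4EBP1 and EIF2C2 had no window.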

How the data were processed

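Total RNA of 27 samples was labelled with Cy5 and hybridised to one-colour Phalanx Human OneArray arrays, per the labels. Values deposited by the authors are intensity per probe and array on a linear scale, and background had been subtracted, since 4.35% to 7.59% of values per array lay under 1 and some below 0; how they were scanned and scaled is not given in the sources used here, so it is unknown whether the authors scaled the arrays. Values under 1 were set to 1, log2 was taken, the 27 arrays were quantile normalised together, and the 3 arrays of a culture were averaged. limma 3.58.1 in R 4.3.3 fitted group means over all 9 cultures, with two-sided moderated tests. Each probe had 1 spread shared by the 3 groups, on which every SE and interval rests. P-values were adjusted by Benjamini-Hochberg across 30968 probes, with a threshold of 0.05. Of these probes 17397 had 1 symbol. The other 13571 had no symbol or several and were not assigned to a gene. The labels do not say whether cultures were grown apart, so p-values cover the spread between these cultures. The number of cultures, 3 per group, limits the precision, and arrays of 1 culture are technical repeats. All sample columns were used.

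The labels do not say that the replicate numbers pair samples, and the main fit did not pair them. Deviations of same-numbered cultures correlated at -0.219 to 0.036 and those of unlike-numbered cultures at -0.072 to 0.189. With 3 cultures per group these values cannot show whether cultures were run in matched sets. The fit was tested on simulated data with the same spread in every group, so that test does not cover the smaller spread of the untreated cultures. Gene symbols are those of the platform annotation, updated through RefSeq (GRCh38.p14), which also gave the promoter sequences; 35 of 42 members had one. In each comparison values per culture are given for the 8 largest falls and rises that passed, the smallest p of each role and, where none passed, the 5 largest differences, except that EIF1AY is not given by culture; up to 4 genes of a pathway list with the smallest p are named. The members and lists were chosen with earlier results of these data known. Alternatives were values as deposited, median centring, a pseudocount of 16, a floor after scaling, dim probes left out, fits on 2 groups or on all 27 arrays, array weights, a replicate block, other choices of probe or member, and leaving out each culture.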

Additional observations from a re-analysis of the deposited data

How the results depend on the processing

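Of the 21 calls for LPS against untreated cells 17 (13 lower, 4 higher) passed under every alternative run, and of the 27 for PBD150 plus LPS against untreated cells 15 (12 lower, 3 higher) did; EIF4E3 missed in the second of these under median centring. No direction of these calls reversed. With all 27 arrays and culture as a random block (correlation 0.239) 26 members were lower with LPS, beside 20.77% of all genes. In that fit 7 members were higher with PBD150 plus LPS, beside 22.07% of all genes. Under values as deposited the median of all genes was 0.38 with LPS and 0.25 with PBD150 plus LPS, and the members' median was -0.28 with LPS and -0.81 with PBD150 plus LPS, which relative to all genes is -0.66 with LPS and -1.06 with PBD150 plus LPS. Under median centring the members' median with PBD150 plus LPS was -1.13, and all genes had -0.10 with LPS. Leaving out 1 culture gave, for PBD150 plus LPS against untreated cells, 13 to 25 lower members and medians of -0.95 to -0.80. Of all genes 13.02% to 20.41% were lower in these fits. For LPS there were 14 to 20 lower members, beside 10.38% to 17.65% of all genes. The median for PBD150 plus LPS against LPS was -0.26 as deposited, -0.13 with array weights and -0.17 to -0.040 with 1 culture left out (-0.17 without PBD150 plus LPS replicate 3), and 0 members passed under any alternative run. EIF3A in that comparison was 0.098 without LPS replicate 1, the cause of which was not tested beyond its values by culture. With a replicate block 15 members were lower and 4 higher with LPS, beside 12.11% and 10.7% of all genes. With PBD150 plus LPS 17 were lower and 4 higher, beside 14.8% and 11.82%, and between the treated groups 0 and 0. The labels do not say that the replicate numbers pair samples. Dim signal limits EIF4H, EIF2S1 and LARP1 in treated cells, NCK1 with PBD150 plus LPS, and IMPACT in all groups.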
